A study of Homo sapiens and Mus musculus with 28 samples.

Results

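The 8 genes described here encode transcription factors of the gut endoderm, the embryonic layer that lines the intestine, stomach and liver: CDX1, CDX2, HNF4A, HNF4G, FOXA1, FOXA2, FOXA3 and KLF5. They were chosen by name and were found by Ensembl gene identifier among 63007 identifiers in the deposited expression files. All libraries came from DLD-1, an established human colorectal adenocarcinoma line, in which GATA6, another endoderm factor, was removed in 2 ways. In cells carrying GATA6-AID-IAA7, a tag through which auxin triggers destruction of the protein, 3 libraries were made of each of 4 groups: control, 12 h in 500 µM auxin (indole-3-acetic acid), washout (those 12 h followed by 24 h in auxin-free medium), and 72 h in auxin. The labels enter the control as auxin at 0 h, and they speak of positive clones without saying how many gave RNA. Cultures of wild-type (WT) cells and of cells with CRISPR knockout (KO) of GATA6 gave 3 libraries each, and tumours grown under the skin of the flank of athymic nude mice, 5 to 6 weeks old, gave 5 control and 5 KO libraries. The labels state 10 mice per condition for the xenografts, do not say which mouse gave which library or whether the KO cells were 1 clone, and list the organism of the xenografts as mouse although the files hold human genes. Nothing in the labels says that culture replicates were separate cultures, so p-values measure the spread between these libraries, which may be technical.

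CDX1 and CDX2 are homeobox factors that set intestinal identity. HNF4A and its paralog HNF4G are nuclear receptors that drive enterocyte genes and lipid handling, and HNF4A is also a main factor of the liver. FOXA1, FOXA2 and FOXA3 are forkhead pioneer factors, which can bind DNA in closed chromatin, and KLF5 is a zinc-finger factor of dividing crypt cells. GATA factors bind the core letters GATA, and in gut and in gastrointestinal tumours GATA6 is known to share regulatory elements with CDX2, HNF4A and KLF5.

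Because these factors are known to occupy one another's control regions, their start-site windows were searched for GATA letters. RefSeq windows of 300 bases (250 before to 50 after the start, build GRCh38.p14) were found for 5 of the 8 genes, in 7 windows. The letters searched on both strands were AGATAA together with its forms AGATAG as well as TGATAA beside TGATAG, which occur in 25% of 35116 RefSeq windows of that length and in 4 of the 7 here. The 4 windows shown are those with such a match, so they were picked for it, and the match says nothing of which genes changed. Each is written 5′ to 3′ on the gene's own strand, with the GATA letters in capitals.
CDX2, chr13:27969266-27969565, minus strand: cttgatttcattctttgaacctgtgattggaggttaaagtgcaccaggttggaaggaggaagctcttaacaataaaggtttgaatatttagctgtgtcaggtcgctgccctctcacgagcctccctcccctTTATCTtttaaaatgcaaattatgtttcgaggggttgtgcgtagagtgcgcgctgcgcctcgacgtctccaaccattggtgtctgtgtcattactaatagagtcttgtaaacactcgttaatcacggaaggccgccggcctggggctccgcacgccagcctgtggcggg
HNF4A, upstream start, chr20:44355449-44355748, plus strand: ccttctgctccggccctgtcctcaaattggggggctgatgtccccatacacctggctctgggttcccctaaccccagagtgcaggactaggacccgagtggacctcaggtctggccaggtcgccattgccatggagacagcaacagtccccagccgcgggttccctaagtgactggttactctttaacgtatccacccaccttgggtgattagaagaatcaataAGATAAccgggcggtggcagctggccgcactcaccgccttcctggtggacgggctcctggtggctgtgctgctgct
HNF4A, downstream start, chr20:44400989-44401288, plus strand: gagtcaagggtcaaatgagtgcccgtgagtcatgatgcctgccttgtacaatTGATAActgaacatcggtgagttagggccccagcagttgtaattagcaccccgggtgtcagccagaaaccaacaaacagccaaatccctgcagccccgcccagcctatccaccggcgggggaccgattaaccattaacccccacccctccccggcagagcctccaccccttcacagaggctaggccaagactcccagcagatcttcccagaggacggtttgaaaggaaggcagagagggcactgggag
KLF5, upstream start, chr13:73054726-73055025, plus strand: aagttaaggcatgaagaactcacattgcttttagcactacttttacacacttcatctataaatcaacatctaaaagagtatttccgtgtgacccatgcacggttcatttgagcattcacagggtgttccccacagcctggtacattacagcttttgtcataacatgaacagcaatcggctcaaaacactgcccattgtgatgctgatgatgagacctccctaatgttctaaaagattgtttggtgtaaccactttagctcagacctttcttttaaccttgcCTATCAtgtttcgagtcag
The match in CDX2 lay on the opposite strand at -119 from the start. In HNF4A the upstream window held it at -26 and the downstream one, whose start lies 45540 bases further along, at -198. The KLF5 match was past the start, at 31. The FOXA1 and FOXA3 windows and the other KLF5 window held none of these letters. CDX letters (TTTATNG or TTTACNG) stood in 3 of the 7 windows against 16.7% of all, FOXA letters (TGTTTAC or TGTTTGC) in 2 against 7.17%, KLF letters (CCACACC or CCCCGCC) in 4 against 35.9%, and the HNF4 letters CAAAGTC in 0 against 3.37%. No matches overlapped one another, and a match says only that the letters are present.

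Library totals ran from 14569850 to 36500654 counts, the lowest in KO xenograft replicate 1. GATA6 transcript was 57.2 to 91.6 CPM (counts scaled by library size and TMM factor) in WT and 18.4 to 25.2 CPM in KO cultures, and 66.4 to 80.1 CPM in control and 28.9 to 42.9 CPM in KO xenografts, so the groups separated, although transcript remained. The degron acts on protein, and GATA6 transcript is no check of it. Of 10 colon carcinoma epithelial markers, 10 were measured, with at least 7 above a mean of 1 CPM in every group and a summed level of 8500 to 10100 CPM in control and 12700 to 18000 CPM in KO xenografts. The summed level of 6 fibroblast markers was 6.35 to 13.3 CPM in control xenografts and 7.81 to 21.4 CPM in KO xenografts, and at most 1.05 CPM in cultured cells. That of 5 endothelial markers was 1.17 to 1.82 CPM in control and 5.61 to 7.62 CPM in KO xenografts, with CLDN5 at 0 in both groups, but it reached 4.36 to 5.32 CPM in KO cultures and 9.4 to 10.1 CPM in 72 h degron cells, which hold no endothelium. Haemoglobin transcripts, which DLD-1 cells should lack, gave 4897 and 1027 counts in the 12 h replicates 2 and 3 and 2739 in washout replicate 3. Washout replicate 1 had 227, and every other library at most 17. Fits described below as without the libraries with haemoglobin leave out those above 500 counts, so washout replicate 1 stays in them. In bulk libraries such as these, fewer cells of a type and less RNA per cell cannot be told apart.

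Compared per length, in TPM, the deposited length-scaled unit,, the factors fell into a high and a low tier. In WT cultures KLF5 was highest at 113 TPM, followed by CDX2 at 66.9, FOXA1 at 48.1 and HNF4A at 14.8 TPM (means, n = 3). FOXA2 at 3.98, HNF4G at 1.19 and FOXA3 at 1.11 TPM formed the low tier, and only the last pair overlapped between libraries. CDX1, the paralog of CDX2, was nearly absent, at 0.05 TPM. The place of CDX2 depends on the gene length behind its TPM, which was lower in cultures than in xenografts, as given with the 72 h results: in CPM, which is not scaled by length, WT cultures had 126 for FOXA1 and 93.1 for CDX2. In the GENCODE v29 annotation (GRCh38) the factors are protein-coding genes at chr5:150166795-150184558 (CDX1), chr13:27962137-27971139 (CDX2), chr20:44355700-44434596 (HNF4A), chr8:75407914-75566843 (HNF4G), chr14:37589984-37596059 (FOXA1), chr20:22581005-22585455 (FOXA2), chr19:45863989-45873797 (FOXA3) and chr13:73054976-73077542 (KLF5). CDX2, FOXA1 and FOXA2 lie on the minus strand and the others on the plus strand.

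The order by TPM differed between systems. In the degron control CDX2 led at 125 TPM, above KLF5 at 82.6 and FOXA1 at 81.6 TPM, which overlapped each other. Control xenografts had KLF5 at 168 TPM, then FOXA1 at 95.8 and CDX2 at 95.6 TPM, which overlapped, and HNF4A at 22.6 TPM. Below these, FOXA3, HNF4G, FOXA2 and CDX1 stood between 1.67 and 2.80 TPM, each overlapping the next. KO xenografts kept KLF5, FOXA1, CDX2 and HNF4A in that order, at 129, 91.4, 69.8 and 17.2 TPM. Across groups, KO cultures were lowest in mean TPM for CDX2, HNF4A, FOXA1, FOXA3 and KLF5, although for HNF4A, FOXA3 and KLF5 their libraries overlapped those of the next group.

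**Figure D1:**
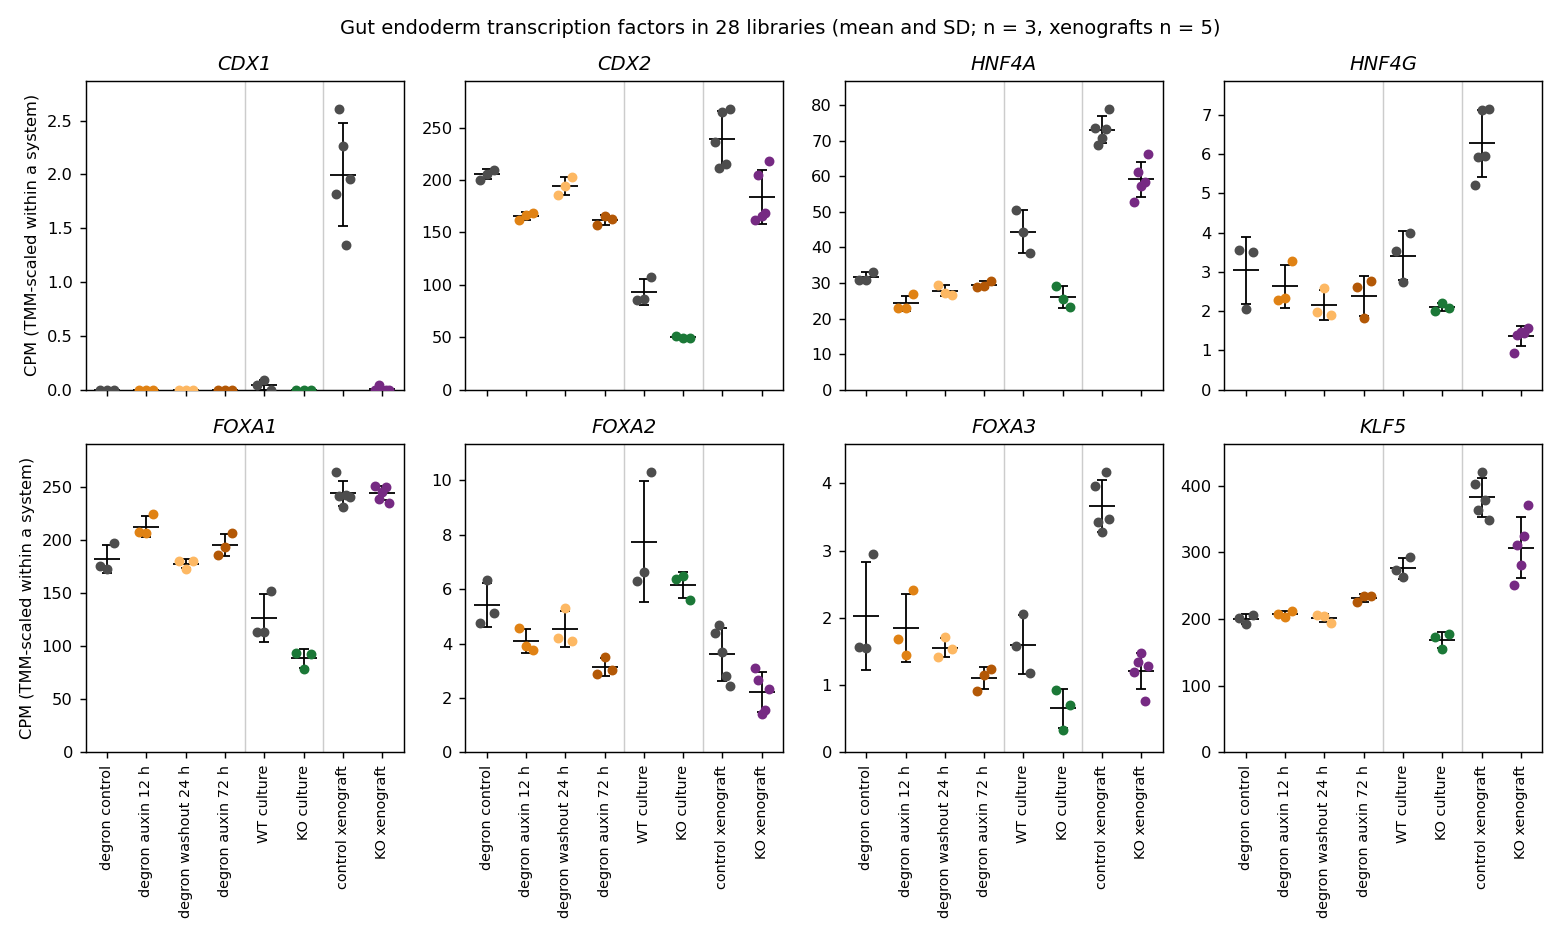
CPM of each factor (vertical axes start at 0) in every library of the 8 groups, with the mean and SD as bars. CPM was scaled within a system, and the grey lines part the systems. CDX1 rose above 1 CPM in the 5 control xenografts alone, and in KO cultures the 3 CDX2 libraries lie between 48.8 and 51.5 CPM, below the 3 WT libraries.

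Knockout in culture asks what these factors do when GATA6 is lost over the long term. Of the 7 factors that could be tested, 6 were lower in KO than in WT cultures by edgeR's quasi-likelihood test, and none was higher, while 59.1% of all 13740 genes tested were called in either direction, 30.4% higher and 28.7% lower. Each of the 6 had every KO library below every WT library, though the share of all genes that separated in this way was not counted. FOXA3 passed the filter on low counts (0.435 CPM in at least 3 libraries) only through the WT cultures. Such entry favours a lower value in KO cultures, and without FOXA3 5 of 6 were lower. CDX1 had too few counts to test, with 1, 2 and 0 counts in the WT and 0 in all KO cultures.

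CDX2 was 85.1, 86.9 and 107 CPM in the WT cultures and 51.5, 48.9 and 48.8 CPM in the KO cultures. The KO libraries lay close together and below all WT libraries, and the log2 fold change was -0.90 ± 0.08 (SE, edgeR adjusted p = 3.79e-06). KLF5 was 273, 263 and 293 CPM in WT and 173, 155 and 177 CPM in KO cultures. Its change, -0.71 ± 0.06 on the log2 scale, had the smallest edgeR adjusted p of the factors, 7.20e-08. HNF4A was 50.7, 44.2 and 38.5 CPM in WT and 29.2, 25.6 and 23.3 CPM in KO cultures, a log2 change of -0.78 ± 0.11 (edgeR adjusted p = 2.17e-04).

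Its paralog HNF4G was 3.52, 2.74 and 3.98 CPM in WT and 2.01, 2.20 and 2.08 CPM in KO cultures, so it fell by 0.69 on the log2 scale (edgeR adjusted p = 0.0101). On the TPM scale that drop was not seen, with a log2 change of -0.06 (limma adjusted p = 0.783). FOXA3 fell most in proportion, from 1.58, 2.05 and 1.18 CPM to 0.921, 0.339 and 0.705 CPM, a log2 change of -1.32 ± 0.38 (edgeR adjusted p = 8.03e-03), and it rested on 10 to 45 counts per library. Without WT replicate 2 its adjusted p was 0.0532.

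FOXA1 was 114, 113 and 152 CPM in WT and 94.0, 78.7 and 92.7 CPM in KO cultures, and the WT spread came from replicate 3. Its log2 change of -0.51 ± 0.15 passed narrowly (edgeR adjusted p = 0.0395) and failed without any 1 of the KO cultures, at edgeR adjusted p of 0.0714, 0.101 and 0.0753. FOXA2 was 6.31, 6.62 and 10.3 CPM in WT and 6.36, 6.47 and 5.60 CPM in KO cultures, groups that overlapped, and it did not pass (log2 -0.32 ± 0.18, edgeR adjusted p = 0.135). Without WT replicate 1 it did, at log2 -0.46 and adjusted p = 0.0389. A same-strand gene, AL121722.1, overlaps FOXA2 by 3257 bases in the GENCODE v29 annotation. No counts of AL121722.1 were available from the expression files, so whether it affected the FOXA2 counts was not tested.

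In xenografts, knockout was compared with control tumours. Of the 8 factors, 7 were lower in KO xenografts and none was higher, with 56.1% of 14996 genes called in either direction, 28% higher and 28.1% lower. CDX1 entered the test only through its level in the control tumours, so that its call adds nothing to this count, and without it 6 of 7 were lower.

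CDX1 had 44, 95, 56, 28 and 40 counts in the control xenografts and a single count in the 5 KO xenografts, in replicate 2. Summed, 263 counts stood against 1, a ratio of count rates of 199 with a 95% exact interval of 35.3 to 7870, which covers counting error only. CDX1 was thus detected at 1.34 to 2.61 CPM in each control tumour. With 0 counts in all 12 degron libraries, levels above 0.0413 to 0.053 CPM per group were not seen there (3 counts over the summed library totals).

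CDX2, the more abundant paralog, ranged from 212 to 268 CPM in the control xenografts, median 237, and from 161 to 218 CPM in the KO xenografts, median 169. The groups overlapped, since KO replicate 5 exceeded control replicates 2 and 4. Its log2 change was -0.38 ± 0.10 (edgeR adjusted p = 3.75e-03). The CDX1 share of the summed CDX TPM was 1.73% ± 0.47 (SD, n = 5) in control and 0.00755% ± 0.0169 (SD, n = 5) in KO xenografts.

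HNF4G and HNF4A parted in size. HNF4G was 5.21, 5.93, 7.12, 5.94 and 7.14 CPM in control xenografts and 0.925, 1.39, 1.47, 1.44 and 1.58 CPM in KO xenografts, with a wide gap between the groups. It fell by 2.19 ± 0.17 on the log2 scale (edgeR adjusted p = 6.78e-08). HNF4A was 73.6, 69.0, 70.8, 73.3 and 79.0 CPM in control and 52.8, 61.2, 57.3, 58.5 and 66.2 CPM in KO xenografts, also without overlap, and fell by 0.30 ± 0.07 (edgeR adjusted p = 1.26e-03).

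Among the forkhead factors, FOXA3 was 3.28 to 4.17 CPM in control and 0.771 to 1.47 CPM in KO xenografts, again with no overlap, and fell by 1.59 ± 0.20 on the log2 scale (edgeR adjusted p = 6.39e-06). FOXA2 was 2.45 to 4.69 CPM in control and 1.42 to 3.11 CPM in KO xenografts, ranges that overlapped. Its log2 change of -0.72 ± 0.25 passed (edgeR adjusted p = 0.0217) but did not without control replicate 1, control replicate 2 or KO replicate 4, at edgeR adjusted p of 0.0567, 0.0702 and 0.0561. FOXA1, the abundant member of the family, was 231 to 264 CPM in control and 235 to 251 CPM in KO xenografts and was not called (log2 0.00 ± 0.06, edgeR adjusted p = 0.989). KLF5 was 348 to 421 CPM in control and 251 to 371 CPM in KO xenografts, with overlap through KO replicate 5, and fell by 0.32 ± 0.09 (edgeR adjusted p = 8.98e-03).

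**Figure D2:**
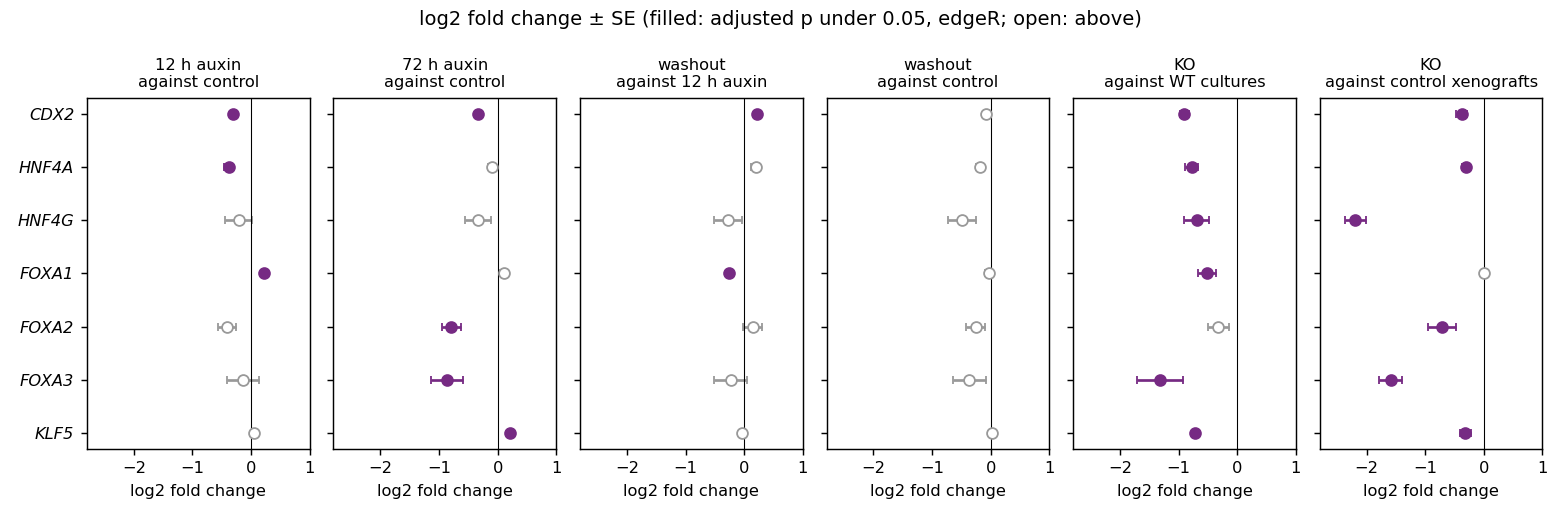
log2 fold change (horizontal axis) with its standard error for 7 factors in the 6 comparisons named above the panels, filled where the edgeR adjusted p was under 0.05. In KO cultures 6 of the 7 lie left of 0 and are filled, in KO xenografts HNF4G and FOXA3 lie farthest left, and after washout none is filled against control.

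The balance within families was measured as the share of the family's summed TPM. HNF4A took 90.6% ± 0.99 (SD, n = 5) of HNF4A and HNF4G in control and 97.3% ± 0.62 (SD, n = 5) in KO xenografts. FOXA1 took 95.2% ± 0.43 (SD, n = 5) of the FOXA sum in control and 97.8% ± 0.50 (SD, n = 5) in KO xenografts. In both, as for the CDX1 share, the groups of 5 did not overlap, and a two-sided exact permutation test gave p = 0.00794, the smallest that 5 against 5 can give. Adjusted over the 21 tests of shares this was 0.0556, which misses the threshold of 0.05. In 5 of the 21, those of the CDX1 share in degron cells, every library was at 0, and adjusted over the other 16 the value was 0.0423, under the threshold. Groups of 3 against 3 cannot go below an exact permutation p of 0.10. In cultures the FOXA1 share was 90.4% ± 0.59 (SD, n = 3) in WT and 90.1% ± 0.91 (SD, n = 3) in KO, and the HNF4A share was 92.5% ± 1.5 (SD, n = 3) and 89.3% ± 2.3 (SD, n = 3), overlapping in both cases. The HNF4A share in cultures also depends on the gene length behind the HNF4G TPM, given above.

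**Figure D3:**
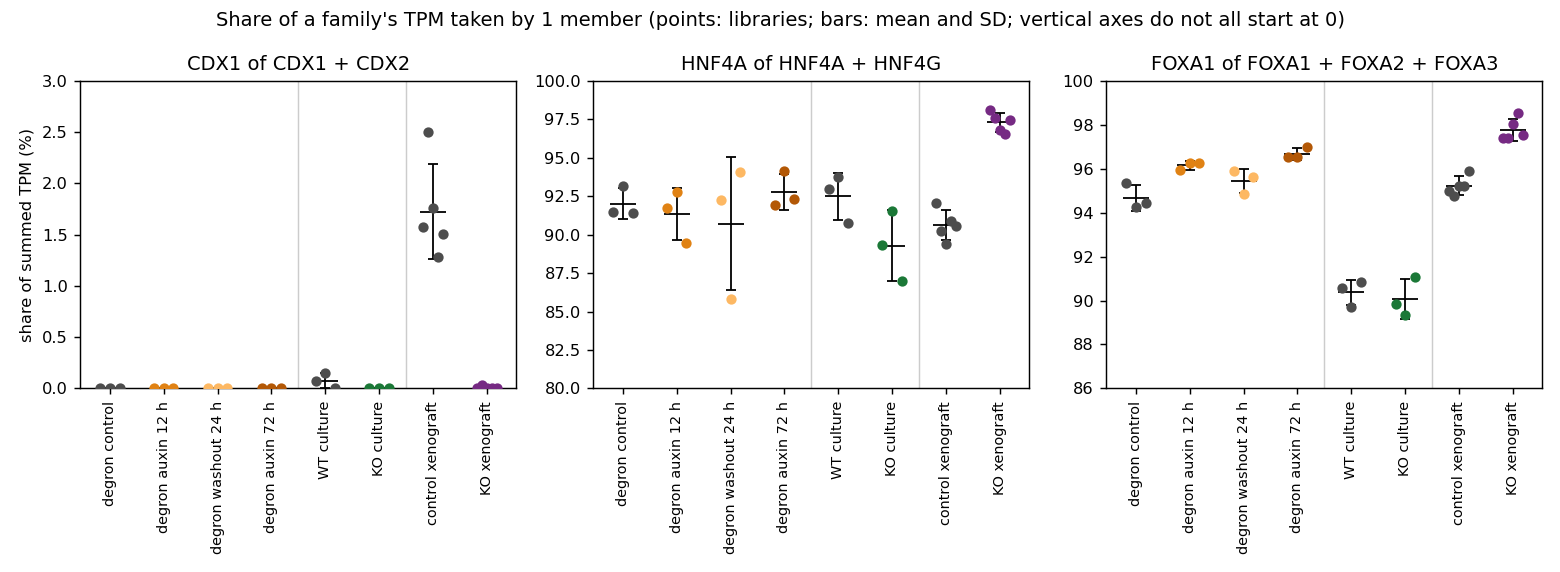
Share, in percent, of a family's summed TPM taken by CDX1, HNF4A or FOXA1 in each library, with the mean and SD, on vertical axes of different ranges. The KO xenografts stand apart from the control xenografts in all 3 panels, while the WT and KO cultures overlap.

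Whether knockout acted differently in tumours and in cultures was tested as the difference of the 2 log2 changes in a joint fit, where 27% of 16021 genes were called, 12.6% positive and 14.4% negative. Of the 8 factors, 5 differed. The drop of HNF4G was larger in xenografts, by -1.48 ± 0.27 (edgeR adjusted p = 2.97e-04). The drops of CDX2, HNF4A, FOXA1 and KLF5 were smaller in xenografts, by 0.54 ± 0.15, 0.49 ± 0.13, 0.53 ± 0.12 and 0.41 ± 0.14, with edgeR adjusted p of 0.0104, 0.00709, 0.00192 and 0.0291. For these 4 the difference was not called on the TPM scale, where limma adjusted p ran from 0.108 to 0.528. The KLF5 difference was also lost without WT replicate 1 or 3 or KO replicate 2 (edgeR adjusted p of 0.0524, 0.0714 and 0.0880) and with total-count scaling (0.0558). FOXA2 and FOXA3 showed differences of -0.38 ± 0.34 and -0.25 ± 0.41 that did not pass (edgeR adjusted p = 0.453 and 0.700), although FOXA3 was called on log2(TPM + 1), at -0.54 (limma adjusted p = 0.0250), and CDX1, with 3 counts in all cultures, gave no usable fold in this test.

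Control xenografts were also set against WT cultures, a contrast in which growth form, annotation set and any mouse reads cannot be told apart and in which 70% of 16021 genes were called, 35% in each direction. CDX1 rose, from 3 counts in the WT cultures to 263 in the control xenografts, a ratio of count rates of 44 (95% exact interval 14.9 to 215). CDX2, HNF4A, HNF4G, FOXA1 and FOXA3 were higher in the xenografts, with log2 changes of 1.11 ± 0.11, 0.46 ± 0.09, 0.63 ± 0.18, 0.70 ± 0.08 and 0.92 ± 0.27. FOXA2 ran the other way, at -1.33 ± 0.23, and all 6 of these passed with edgeR adjusted p of at most 0.00431. KLF5 at 0.22 ± 0.10 did not (edgeR adjusted p = 0.0531), though it did with DESeq2 (adjusted p = 0.0271). It was also called with total-count scaling (log2 0.51, edgeR adjusted p = 3.48e-05) and on log2(TPM + 1) (0.56, limma adjusted p = 1.18e-04). DESeq2-type size factors in edgeR (adjusted p = 0.0335) and edgeR with no filter (0.0345) called KLF5 too. Of the 8 fits that left out 1 library, only that without control replicate 5 called it (edgeR adjusted p = 0.0334). On TPM the CDX2 change was 0.51 (limma adjusted p = 7.48e-05), smaller than by counts, and that of FOXA2 was -0.72. The scaling moves these values: total-count scaling shifted the median of all genes by 0.295 on the log2 scale.

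The degron series asks what happens within hours and days of GATA6 loss. After 12 h of auxin 3 of 7 testable factors were called, CDX2 and HNF4A lower and FOXA1 higher, while 7.39% of 14029 genes were called, 4.04% higher and 3.35% lower. CDX2 was 200, 206 and 210 CPM in control cells and 162, 167 and 168 CPM at 12 h, without overlap, a log2 change of -0.31 ± 0.05 (edgeR adjusted p = 9.93e-05). HNF4A was 30.8, 30.8 and 33.2 CPM in control cells and 23.1, 22.9 and 26.8 CPM at 12 h, again apart, with a log2 change of -0.38 ± 0.07 (edgeR adjusted p = 1.16e-03). FOXA1 rose from 175, 173 and 198 CPM to 207, 207 and 224 CPM (log2 0.23 ± 0.05, edgeR adjusted p = 9.63e-03).

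The FOXA1 rise at 12 h was not called without control replicate 2 (log2 0.19, edgeR adjusted p = 0.0683) or without the 3 libraries with haemoglobin (log2 0.19, edgeR adjusted p = 0.253). That fit leaves 1 library at 12 h, which is assumed to vary like the other groups, and gave CDX2 -0.35 (edgeR adjusted p = 4.16e-03) and HNF4A -0.46 (edgeR adjusted p = 0.0155). On the TPM scale none of the 3 was called, with limma adjusted p of 0.099 to 0.133. FOXA2 stood at 4.77, 6.33 and 5.13 CPM in control cells and 4.58, 3.93 and 3.75 CPM at 12 h and was not called (log2 -0.41 ± 0.16, edgeR adjusted p = 0.120). HNF4G at -0.21 ± 0.23, FOXA3 at -0.14 ± 0.27 and KLF5 at 0.06 ± 0.05 on the log2 scale were not called either.

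At 72 h the control libraries are the same as at 12 h, so the 2 sets of values are not independent. Of 7 factors 4 were called, 3 lower and 1 higher, with 57.8% of 14029 genes called, 28.3% higher and 29.5% lower. CDX2 stayed low at 157, 166 and 163 CPM (log2 -0.34 ± 0.05, edgeR adjusted p = 7.77e-07), and HNF4A was back at 28.9, 29.3 and 30.6 CPM, just below every control library and not called (log2 -0.09 ± 0.07, edgeR adjusted p = 0.252). FOXA2 was 2.87, 3.51 and 3.03 CPM, below every control library (log2 -0.79 ± 0.16, edgeR adjusted p = 1.42e-04). FOXA3 was 1.57, 1.56 and 2.95 CPM in control cells and 0.918, 1.16 and 1.24 CPM at 72 h (log2 -0.86 ± 0.28, edgeR adjusted p = 0.0105). That call failed without control replicate 3, the highest library (log2 -0.51, edgeR adjusted p = 0.154), and without 72 h replicate 1 (edgeR adjusted p = 0.0505).

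KLF5 went up at 72 h, from 202, 192 and 206 CPM to 225, 235 and 235 CPM (log2 0.21 ± 0.05, edgeR adjusted p = 2.76e-04), the opposite of its direction in KO cultures. FOXA1 at 0.10 ± 0.05 and HNF4G at -0.34 ± 0.22 on the log2 scale were not called. FOXA1 was called without control replicate 3 (edgeR adjusted p = 0.0187) and with total-count scaling (log2 0.23, edgeR adjusted p = 1.67e-03), and HNF4G without control replicate 2 (log2 -0.57, edgeR adjusted p = 0.0358).

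From 12 h to 72 h 55.4% of 14029 genes were called, 26.8% higher and 28.6% lower. HNF4A rose by 0.29 ± 0.07 and KLF5 by 0.16 ± 0.05 on the log2 scale (edgeR adjusted p = 1.31e-03 and 4.78e-03). On log2(TPM + 1) HNF4A, at 0.19, was not called (limma adjusted p = 0.118), while KLF5, at 0.27, was (limma adjusted p = 1.49e-03). Without the libraries with haemoglobin, which leaves 1 library at 12 h, the rises were 0.36 and 0.16. FOXA2 and FOXA3 fell by 0.38 ± 0.16 and 0.72 ± 0.28 (edgeR adjusted p = 0.0486 and 0.0314), both near the threshold and neither called by DESeq2. FOXA2 was not called without 12 h replicate 1 or 2 or 72 h replicate 1 or 3 (edgeR adjusted p of 0.189, 0.0776, 0.151 and 0.108), nor FOXA3 without 12 h replicate 3 or 72 h replicate 1 or 2 (edgeR adjusted p of 0.182, 0.116 and 0.0561). CDX2 at -0.03 ± 0.05 was not called.

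For CDX2 the scale decided the direction at 72 h. Its TPM was 109, 134 and 132 in control cells and 154, 148 and 132 at 72 h, a log2 change of 0.21 against the -0.34 of the counts (limma adjusted p = 0.0383 with a pseudocount of 1). TPM divides a count by a gene length, and the length implied by count over TPM, relative to the library's median gene, was 0.985, 0.830 and 0.868 in control cells but 0.621, 0.659 and 0.733 at 72 h. It was 0.849 to 0.891 at 12 h, 0.931 to 0.986 after washout, 0.645 to 0.815 in the cultures and 1.19 in every xenograft library. The implied length of HNF4A went the other way, from 1.28 to 1.36 in control cells to 1.48 to 1.56 at 72 h, and that of FOXA1 from 1.19 to 1.23 to 1.33 to 1.34. That of KLF5 stayed between 1.27 and 1.32 in all 12 degron libraries.

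**Figure D4:**
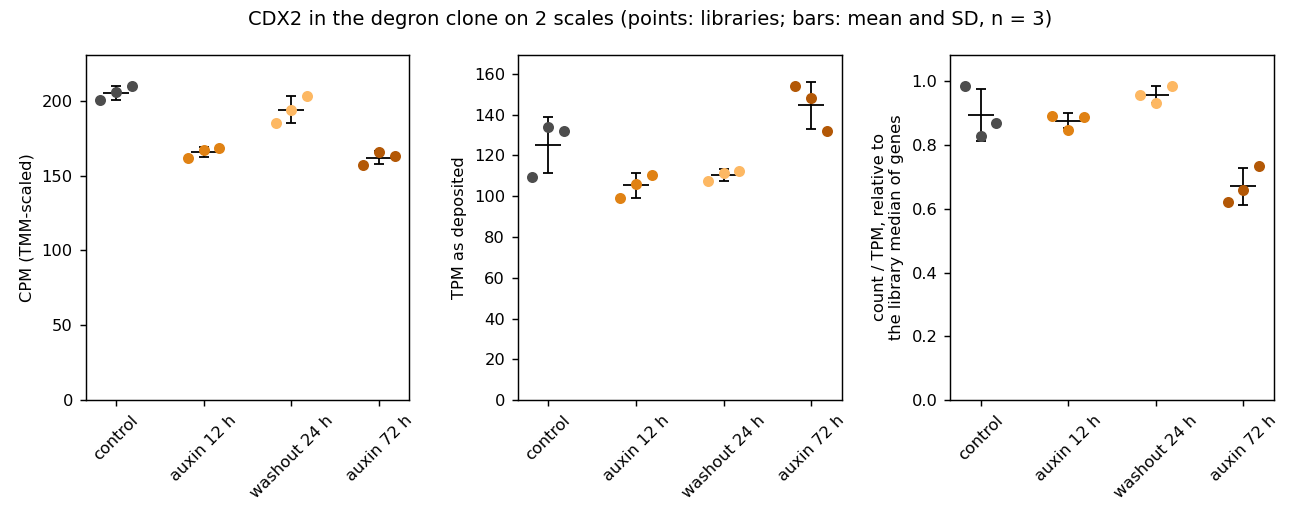
CDX2 in the 12 degron libraries as CPM (left), as TPM (middle) and as the implied gene length relative to the median gene (right), with the mean and SD; all vertical axes start at 0. The 72 h libraries are low in CPM, high in TPM and lowest in implied length, at 0.621 to 0.733.

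After washout, CDX2 and FOXA1 had moved back. CDX2 was 185, 194 and 203 CPM, above every 12 h library (log2 0.23 ± 0.05, edgeR adjusted p = 1.39e-03), though on the TPM scale it differed by 0.07 and was not called (limma adjusted p = 0.638). FOXA1 was 180, 173 and 180 CPM, below every 12 h library (log2 -0.26 ± 0.05, edgeR adjusted p = 1.67e-03). These were the 2 of 7 factors called against 12 h, where 17.4% of 14029 genes were called, 9.27% higher and 8.15% lower. Without the haemoglobin libraries, which leave 1 library at 12 h and 2 after washout, neither was called, at log2 0.23 and -0.23 and edgeR adjusted p of 0.0818 and 0.121. HNF4A, at 29.5, 27.1 and 26.7 CPM, overlapped the 12 h libraries and was not called (log2 0.20 ± 0.07, edgeR adjusted p = 0.0650), except without 12 h replicate 3 (adjusted p = 0.0175).

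Against control, washout left 0 of 7 factors called by edgeR, with 5% of 14029 genes called, 2.64% higher and 2.36% lower. DESeq2 also called 0. In edgeR 1 factor, HNF4A, was under 0.05 before adjustment, at log2 -0.19 ± 0.07 (edgeR adjusted p = 0.154), and every washout library lay below every control library. The log2 changes of the others ran from -0.49 ± 0.24 for HNF4G to 0.01 ± 0.05 for KLF5.

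The 72 h change and the culture knockout were compared as the difference of their log2 changes, in which 44.1% of 14714 genes were called, 23% positive and 21.1% negative. KLF5 differed most in these terms, by 0.94 ± 0.07 (edgeR adjusted p = 2.85e-11), being higher at 72 h and lower in KO cultures. HNF4A differed by 0.70 ± 0.13, FOXA1 by 0.63 ± 0.14 and CDX2 by 0.57 ± 0.09 (edgeR adjusted p = 5.75e-05, 2.23e-03 and 3.92e-06). HNF4A and CDX2 were less lowered at 72 h, while FOXA1, lower in KO cultures, was at 0.10 ± 0.05 and not called at 72 h. On TPM the FOXA1 difference was not called (limma adjusted p = 0.053 with a pseudocount of 1 or 0.1). HNF4G, FOXA2 and FOXA3 were not called, at 0.37 ± 0.32, -0.45 ± 0.24 and 0.47 ± 0.47. The cells also differed without auxin: against WT cultures, control degron cells had CDX2 higher by 1.08 ± 0.06 and FOXA1 by 0.46 ± 0.10, and HNF4A, FOXA2 and KLF5 lower, at -0.57 ± 0.09, -0.57 ± 0.17 and -0.53 ± 0.05 on the log2 scale, with 63.5% of genes called, 31.6% higher and 31.9% lower, and edgeR adjusted p of at most 0.00413. On TPM, HNF4A at -0.19 and FOXA2 at -0.26 were not called (limma adjusted p = 0.182 and 0.127), and FOXA2 was also lost without WT replicate 3 (log2 -0.33, edgeR adjusted p = 0.0816). Clone, tag and annotation set cannot be told apart there.

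Genes known as CDX targets in the intestine were read beside the factors. In KO xenografts 8 of 16 could be tested, and 6 were lower and 1 higher, where 28.1% of all genes were lower and 28% higher. GUCY2C, LGALS4, ABCB1 and MYO1A passed the filter on low counts (0.485 CPM in at least 5 libraries) only through the control tumours, which favours a lower value in KO. Of the 3 that each group carried past it 2 were lower and 1 higher. VIL1, which builds the brush border, was 83.6 CPM in control and 4.59 CPM in KO xenografts (log2 -4.19 ± 0.14, edgeR adjusted p = 2.6e-11). ABCB1, a drug efflux pump, was 96.2 and 0.611 CPM (log2 -7.20 ± 0.23), LGALS4, an intestinal galectin, 10.99 and 0.123 CPM (log2 -6.41 ± 0.32), and GUCY2C, the guanylin receptor, 7.87 and 0.219 CPM (log2 -4.99 ± 0.37). KRT20, a keratin of differentiated colonocytes and the single member that rose, went from 21.98 to 78.1 CPM (log2 1.83 ± 0.16). The epithelial marker sum given above, which includes VIL1, LGALS4 and CDH17, was higher in KO than in control xenografts. In KO cultures 4 of the 16 could be tested, ABCB1 only through its WT level, and ABCB1 (-6.66 ± 0.17), VIL1 (-2.45 ± 0.18) and CDH17, an intestinal cadherin (-0.57 ± 0.07), were lower while KRT20 was higher (3.06 ± 0.04). At 72 h ABCB1 (-3.67 ± 0.09) and CDH17 (-0.64 ± 0.06) were lower and KRT20 higher (1.33 ± 0.06). At 12 h KRT20 alone was called, and higher (0.62 ± 0.06). After washout CDH17 was lower than at 12 h (-0.87 ± 0.06), as were ABCB1 (-0.89 ± 0.07) and KRT20 (-0.62 ± 0.06), where 8.15% of all genes were lower.

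Most genes known as HNF4 targets, largely apolipoproteins and clotting factors of the liver, were too low to test, and 2 of 18 could be tested in cells and 4 in xenografts. PCK1, the gluconeogenic enzyme, was lower in KO xenografts (log2 -2.38 ± 0.38, edgeR adjusted p = 8.3e-05) but entered the test only through the control tumours. SERPINA1, the antitrypsin gene, was higher in KO cultures (log2 2.02 ± 0.10) and at 72 h (0.62 ± 0.15), and not called in KO xenografts (-0.51 ± 0.28). The 6 hepatocyte markers, which include SERPINA1, APOA1 and ALB, summed to 53.2 to 122 CPM in control and 37.5 to 65.3 CPM in KO xenografts, with TTR at 0 in both. APOA1, at 0 counts in control cells, had a mean of 1.62 CPM at 72 h.

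Of 13 genes known as FOXA targets, 7 could be tested in xenografts, with 2 higher and 4 lower in KO, where 28% of all genes were higher and 28.1% lower. TFF2 and CREB3L1 entered only through the control tumours, and without them 2 of 5 were higher and 2 lower. AGR2, a secretory-pathway gene, rose from 432 to 1159 CPM (log2 1.43 ± 0.07) and SPDEF, a goblet cell factor, rose by 0.69 ± 0.11. TFF2, a trefoil peptide of gastric mucus, fell from 1.56 to 0.0633 CPM, and CREB3L1 was at 0 CPM in the KO xenografts against a mean of 0.943 CPM, so no fold is given. Of the 6 gastric epithelium markers, which share TFF1, TFF2 and MUC5AC with this list, ANXA10, CLDN18 and GKN1 were at 0 in both groups, and the summed level was 133 to 253 CPM in control and 90.6 to 126 CPM in KO xenografts; the part of such cells in the result was not tested. In KO cultures 3 of 4 were higher and 1 lower (30.4% and 28.7% of all genes), and at 72 h 3 of 5 were higher (28.3% of all genes), of which ALB entered only through the 72 h group.

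Of 12 genes known as KLF5 targets, mainly cell cycle and growth genes, 11 were tested in each system. In KO xenografts 4 were higher and 7 lower, in KO cultures 5 and 5, and at 72 h 4 and 4, so the list moved in no single direction. TNFRSF11A passed the filter on low counts through only 1 of the xenograft groups, and without it 4 of 10 were higher and 6 lower there. Over all genes 56.1%, 59.1% and 57.8% were called in these comparisons. MYC fell by 1.89 ± 0.09 on the log2 scale in KO xenografts, by 2.03 ± 0.05 in KO cultures, by 0.45 ± 0.07 at 72 h and by 0.58 ± 0.07 at 12 h, and it rose by 0.61 ± 0.07 from 12 h to washout. FGFBP1, a carrier of fibroblast growth factors, rose by 1.30 ± 0.06 in KO cultures and by 0.80 ± 0.09 at 72 h.

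**Figure D5:**
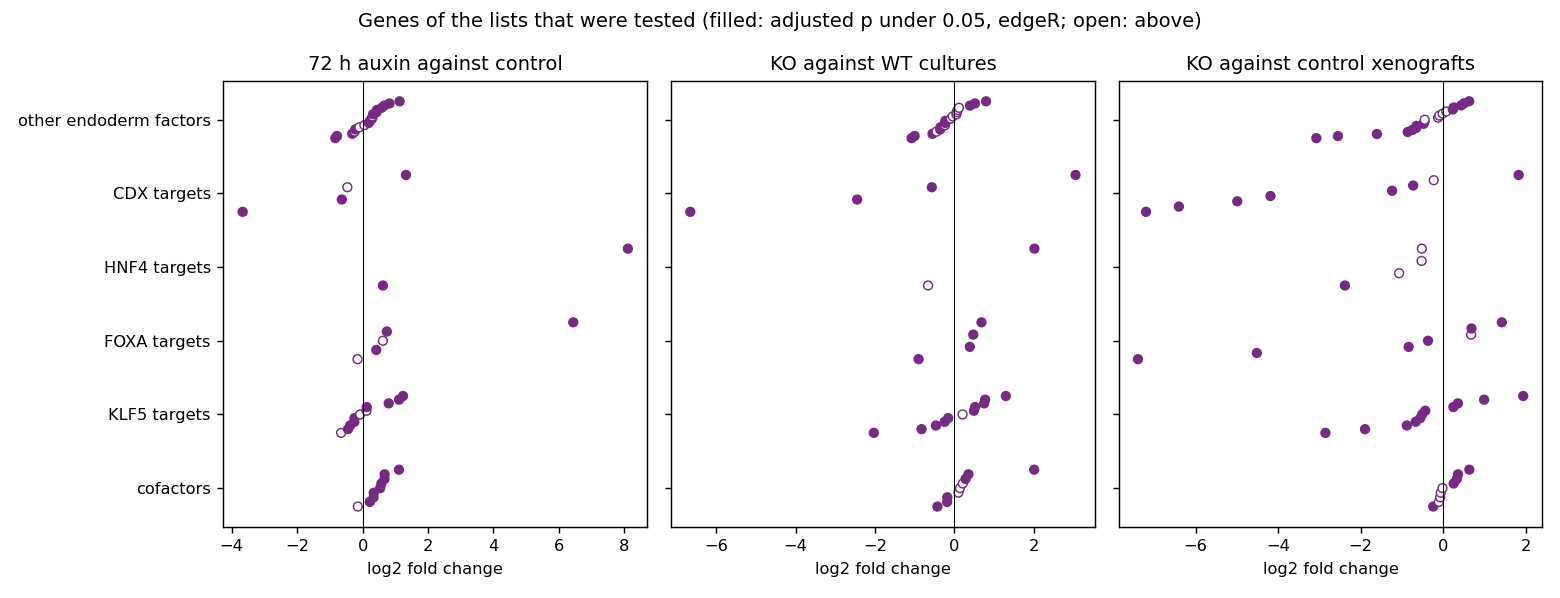
log2 fold changes (horizontal axis) of the tested genes of 6 lists in 3 comparisons, 1 point per gene and spread vertically by rank within its list, filled where the edgeR adjusted p was under 0.05. The CDX target points reach -7.20 in KO xenografts and -6.66 in KO cultures. Both are ABCB1, which passed the filter on low counts only through the control tumours and only through the WT cultures. At 72 h 8 of the 9 cofactor points are filled on the right of 0.

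Other endoderm factors, 27 in the list, changed in both directions. In KO xenografts 9 of 19 tested were lower and 5 higher (28.1% and 28% of all genes). NKX2-1 passed the filter on low counts only through the control tumours, and without it 8 of 18 were lower and 5 higher. PROX1, a homeobox factor of intestinal tumours, fell from 21.9 to 2.56 CPM (log2 -3.07 ± 0.20) and ISX, an intestine-specific homeobox factor, from 17.2 to 5.63 CPM (log2 -1.60 ± 0.16). In KO cultures 7 of 18 were lower and 3 higher, where 59.1% of all genes were called. PROX1 entered there only through the WT cultures, and without it 6 of 17 were lower and 3 higher. PDX1, the pancreas and duodenum factor and the neighbour of CDX2, was at 10.3 CPM in WT and 5.15 CPM in KO cultures. KLF6 was higher in KO cultures by 0.80 ± 0.05 on the log2 scale. At 72 h 10 of 18 were higher and 4 lower (28.3% and 29.5% of all genes), with PDX1 again lower (-0.84 ± 0.09) and KLF4, a factor of differentiated gut epithelium, higher (0.82 ± 0.06). At 12 h 3 of 18 were higher and 1 lower (4.04% and 3.35% of all genes), among them KLF4, which was higher (0.29 ± 0.07).

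Cofactors through which these factors act, such as the coactivators NCOA1 and NCOA2 and the Groucho corepressor TLE3, were higher at 72 h in 8 of 9 tested, against 28.3% of all genes, with NCOA1 at 0.67 ± 0.08, NCOA2 at 0.57 ± 0.09 and TLE3 at 0.67 ± 0.09 on the log2 scale. In KO xenografts 4 of 9 were higher and 1 lower (28% and 28.1% of all genes), and in KO cultures 3 and 3 of 9 (30.4% and 28.7%). Among 6 genes that neighbour the factors, PDX1 and LINC00543 were lower at 72 h, of 4 tested (29.5% of all genes). PDX1 alone was called in KO cultures, of 4 tested, and in KO xenografts, of 3 (59.1% and 56.1% of all genes). TTC6, whose annotation overlaps the opposite strand of FOXA1 by 213 bases, had 12 to 49 counts per library of cultured cells, and HNF4A-AS1, opposite HNF4A, had 0 in all groups.

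As a description over the 28 libraries, with each system centred on its own mean, Pearson's r between log2 levels was 0.809 for CDX2 and HNF4A and 0.807 for HNF4G and FOXA3, the highest pairs, and 0.130 for FOXA1 and FOXA2, the lowest. Libraries share system, treatment and depth, and differences between groups enter these values. By the same measure among 11903 genes, the most alike to CDX2 was RPL10A (r = 0.929), to HNF4A ARHGAP18 (0.888), to HNF4G EPS8 (0.95), to FOXA1 MSI2 (0.803), to FOXA3 PRPS1 (0.906), to FOXA2 HES7 (0.783) and to KLF5 H19 (0.920).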

How the data were processed

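RNA was sequenced from 28 libraries in 8 groups, from directional poly-A libraries per the labels' protocols. The authors deposited an expected count and a TPM value per gene and library. RSEM, STAR, hg38 and Trim Galore 0.6.10 appear in the submitters' processing notes. Which annotation was used, whether counting was stranded and how mouse reads were treated are not given in the sources used here, so genes that overlap another gene are less certain. Genes were joined by identifier without version (60662 in degron, 60649 in culture and 62700 in xenograft files).

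Expected counts were rounded and tested in R 4.3.3 with edgeR 4.0.16 (filterByExpr, TMM, robust quasi-likelihood fits, Benjamini-Hochberg over all genes tested, threshold 0.05). The 12 degron libraries shared 1 fit, cultures and xenografts had their own, and joint fits gave the differences between systems, 11 comparisons in all. SE was derived from the log2 change and its F statistic (|log2 change| over root F). Family shares were tested by two-sided exact permutation. Alternatives used limma 3.58.1 on log2(TPM + 1) and log2(TPM + 0.1) of the deposited TPM, which understates the change of low genes, DESeq2 1.42.0, other scalings, no filter, left-out libraries and a replicate block. The method was tested on simulated data. Promoters came from RefSeq (GRCh38.p14) and gene positions from GENCODE v29.

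The 8 factors, the gene lists and the tests were chosen with earlier results of these data known. Named genes are the 8 factors, GATA6 and, per list, up to 4 members with the smallest p in the comparison described; KRT20 and PDX1 in xenografts and MYC or KRT20 across times were named after their values were seen. Some genes stand in 2 lists, among them NR1I2, PDX1 and TTR. Depth ran from 14569850 to 36500654 counts per library. Intervals and floors cover counting error only.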

Additional observations from a re-analysis of the deposited data

Results flagged for a closer look

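In the KO xenografts the single CDX1 count, 0.0375 CPM in replicate 2, and the CDX1 share it gives, 0.0378%, stood apart from the 0 of the other 4 libraries. Of 22 groups of 5 checked in this way chance marks about 1 in 20, and 1 count is within counting error of 0.

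The effect of knockout differed between xenografts and cultures for CDX2 by 0.54, HNF4A by 0.49, HNF4G by -1.48, FOXA1 by 0.53, KLF5 by 0.41 and the targeted GATA6 by 0.71 on the log2 scale, by the interaction test in edgeR. The 72 h effect differed from that of culture knockout for CDX2 by 0.57, HNF4A by 0.70, FOXA1 by 0.63, KLF5 by 0.94 and GATA6 by 1.33. In both cases the systems also differ in annotation set and in clone or growth form, and the part of these in the differences was not tested.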

How the results depend on the processing

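Of 1859 values of the factors under the alternatives, 1766 kept their call or lack of a call, 70 lost and 19 gained a call, and 4 reversed. The 1766 include values that changed sign without being called in either fit. HNF4G between 12 h and washout, for example, was -0.28 in edgeR and 0.13 on log2(TPM + 1). The 4 reversed were CDX2 on the TPM scale, at 0.21 and 0.21 for 72 h against control and 0.45 and 0.46 for 72 h against 12 h with pseudocounts of 1 and 0.1; the cause was not tested. Of the family shares, 0 passed after adjustment over 21 tests and 3 over the 16 whose shares vary, an alternative chosen after seeing the data. With the same pseudocounts, limma on TPM called 0 and 0 factors at 12 h (edgeR 3), 2 and 2 between 12 h and 72 h (edgeR 4), 1 and 1 between 12 h and washout (edgeR 2), 3 and 2 for xenograft against culture knockout (edgeR 5), and 3 and 3 for degron cells against WT cultures (edgeR 5). Between 12 h and 72 h, total-count scaling and DESeq2 called 2 each. Without the libraries with haemoglobin 1 was called between 12 h and 72 h and 0 between 12 h and washout, with fewer libraries. Over all genes, 1037 were called at 12 h by edgeR, 357 and 341 on TPM and 334 without the haemoglobin libraries. Between 12 h and washout the counts were 2444, then 1123, 1150 and 494, and for washout against control 701, then 281, 276 and 384, and 458 with only the 2 groups compared.

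Leaving out 1 library at a time called 2 to 3 factors at 12 h, 3 to 5 at 72 h, 2 to 4 between 12 h and 72 h, 2 to 3 between 12 h and washout, 0 to 0 for washout against control, 5 to 7 in KO cultures and 6 to 7 in KO xenografts. Over all genes it gave 606 to 1170 calls at 12 h, 1414 to 2266 between 12 h and washout and 321 to 896 for washout against control. The calls at 12 h fell to 623 without control replicate 2 and 606 without 12 h replicate 1, those between 12 h and washout to 1566 without 12 h replicate 1 and 1414 without washout replicate 3, and those of washout against control to 321 without control replicate 3 and 353 without washout replicate 3. With the replicate number as a block, edgeR called 3 factors and 1202 genes at 12 h, 4 and 8185 at 72 h, and 5 and 7844 between 12 h and 72 h, where FOXA1 was gained (adjusted p = 0.0223). The block gave 2 and 2642 between 12 h and washout, 0 and 816 for washout against control, 6 and 7723 in KO cultures and 7 and 8045 in KO xenografts. Same-numbered libraries deviated together with r of -0.186 to 0.166, so the numbers were not taken as pairs. FOXA3, HNF4G and FOXA2 rest on few counts, and their depth limits what can be seen.

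Total-count scaling shifted the median log2 change of all genes by 0.124 at 72 h and by 0.295 between control xenografts and WT cultures, and TPM by 0.106 at 72 h, 0.151 in KO cultures, -0.203 for xenograft against culture knockout, and 0.115 for both comparisons with WT cultures. Of the calls, 54.7% were higher at 12 h (66.9% with total-count scaling, 70.9% on TPM), 48.9% at 72 h (65% and 65.2%), 48.4% between 12 h and 72 h (62.8% and 60.9%), 51.4% in KO cultures (62.2% and 74.4%), 46.8% for xenograft against culture knockout (32.5% and 17.5%) and 50.1% for control xenografts against WT cultures (70.8% and 63.8%). On TPM the share went from 52.1% to 39.3% for 72 h against culture knockout and from 49.7% to 65.9% for degron cells against WT cultures.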
